A study of Monodelphis domestica with 27 samples.

Results

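Interscapular fat of the marsupial Monodelphis domestica, the gray short-tailed opossum, was compared between 10 and 6 weeks of age across all genes measured. The libraries were taken by the depot named in their titles, which gave 8 of the 27 libraries of the series: 4 at 6 weeks, called young in the labels, and 4 at 10 weeks, called old. The other libraries come from inguinal fat (10) and anterior subcutaneous fat (9). Of 34985 gene identifiers in each file, 13093 passed the filter on low counts and were tested for age.

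Each age held 2 females and 2 males, all from separate animals by the labels. At 6 weeks replicates 1 and 3 were female and replicates 2 and 4 male. At 10 weeks replicates 1 and 2 were female and replicates 3 and 4 male. All animals were laboratory bred and kept at the same ambient temperature and light cycle with free access to food, and the labels give no treatment or genotype. The column names of the interscapular files carry the code iWAT, which the inguinal files also carry, and 1 column name gives animal 1729 where the label gives 1727 (6-week replicate 1). These libraries were used as labelled.

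The interscapular pad lies between the shoulder blades. In placental mammals this is the classical site of brown fat, whose adipocytes hold many mitochondria and release heat through the uncoupling protein UCP1, while white adipocytes store lipid and secrete hormones such as leptin. Fat of a growing animal also changes in its cell makeup, as precursor cells in the stroma divide, lay down matrix and fill with lipid. The files give Ensembl identifiers only, and 0 of the 32665 genes of the RefSeq table at hand carry one, so no symbol was matched. The markers of white and brown adipocytes, stroma, muscle, blood and skin could not be looked up, and the labelled tissue was not checked against them. Genes are therefore given by identifier, with no statement of what they do, and no sequence is shown.

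Depth was similar at the ages. Total counts ran from 3416823 to 6196989, with means of 4655560 ± 1195910 at 6 weeks and 4824470 ± 1029230 at 10 weeks (SD, n = 4 each; exact two-sided permutation test, p = 0.83). After every library was thinned to 3400000 counts, 14246 ± 693 genes had at least 5 counts at 6 weeks and 13588 ± 390 at 10 weeks (SD, n = 4 each). This difference of -658 genes was within the spread of the libraries (exact two-sided permutation test, p = 0.171). The 100 most abundant genes took 29.6% ± 3.41 of the counts at 6 weeks and 30.2% ± 3.87 at 10 weeks (SD, n = 4 each; exact two-sided permutation test, p = 0.83). The smallest p this design allows is 0.0286.

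On the first principal component 3 interscapular libraries stood apart from the other 5, and the split did not follow age. The first principal component of log2 CPM (counts scaled to a common, TMM-adjusted library total) held 50.2% of the variance. Its scores were 65.7 and 68.3 in 10-week replicates 3 and 4, the males of that age, and 35.6 in 6-week replicate 3, a female. The other libraries scored from -58.3 to -11.8, and both ages were among them. The second component, with 22.1% of the variance, came closer to the ages: 3 of the 4 libraries at 6 weeks scored from 28.7 to 38.1 and the fourth, replicate 4, scored -6.91, while those at 10 weeks scored from -44.2 to 1.96. Spearman's rank correlation across genes between libraries was lowest, at 0.858, between 2 libraries of the same age, 10-week replicates 2 and 4. It was 0.955 between 6-week replicate 3 and 10-week replicate 3, which differ in age and sex. With 6-week replicate 2, which did not stand apart, 6-week replicate 3 correlated slightly more, at 0.957. With 10-week replicate 4 it correlated at 0.937. The grouping of 6-week replicate 3 with the older males thus holds for the first component and not for every measure.

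**Figure D1:**
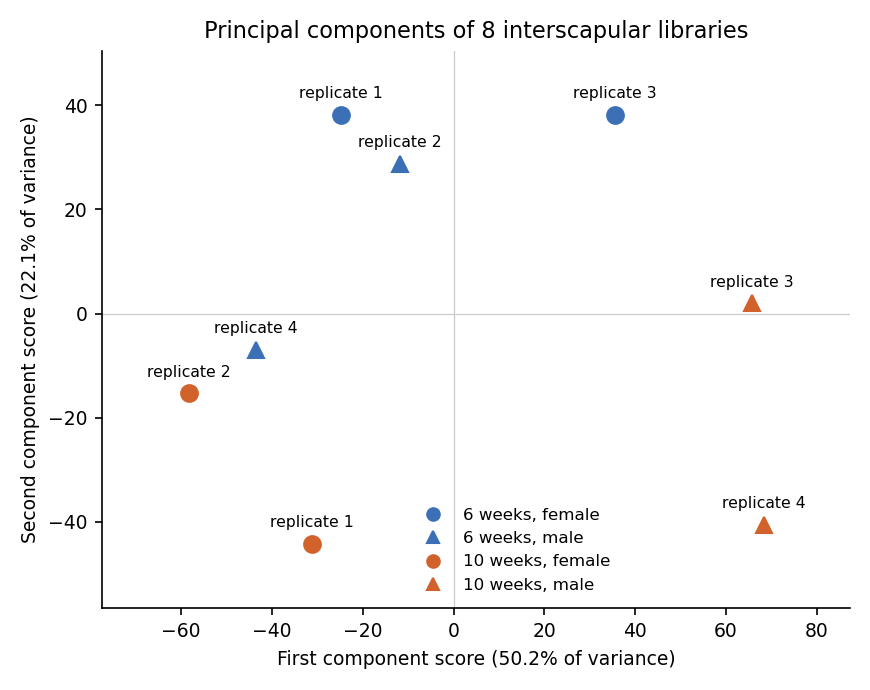
Scores of the 8 interscapular libraries on the first component (horizontal, 50.2% of the variance) and the second component (vertical, 22.1%), with age by colour and sex by shape. The 10-week males (65.7 and 68.3) and 6-week replicate 3 (35.6) lie to the right of the other 5 libraries.

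Few genes passed the age test. At 10 weeks 2 genes were higher (0.0153% of those tested) and 7 were lower (0.0535%), together 9 of 13093 genes or 0.0687%, at an adjusted p under 0.05 by edgeR's quasi-likelihood test with Benjamini-Hochberg adjustment. Genes passing this rule are called below. All 9 had CPM ranges at the ages that did not overlap, as did 7.61% of all genes tested. The 9 were chosen by a test on these same libraries, so their lack of overlap is a description. In bulk tissue, fewer cells of a type and less RNA per cell cannot be told apart, and this holds for every level given here.

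ENSMODG00000018492 had the larger rise. Its CPM at 6 weeks was 10.2, 6.73, 5.72 and 15.3 in replicates 1 to 4, and at 10 weeks 49.9, 56.1, 77.2 and 41.8. Every 10-week library was above every 6-week library by a wide gap, although the 6-week values themselves spread from 5.72 to 15.3. This rise measured 2.57 on the log2 scale (SE 0.33), with an adjusted p of 0.0481 by edgeR. By sex it was 2.70 in females and 2.46 in males, and the interval of the male minus female difference (95%) ran from -1.71 to 1.24.

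ENSMODG00000044265 was the other gene that rose. It stood at 45.5, 47.7, 58.0 and 50.1 CPM at 6 weeks and at 124, 89.9, 117 and 116 CPM at 10 weeks. The 6-week libraries lay close together, and 10-week replicate 2 was the lowest of its age. On the log2 scale it rose by 1.15 (SE 0.14), with an adjusted p of 0.0481 by edgeR, and by sex the estimate was 1.05 in females and 1.26 in males.

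ENSMODG00000012713 fell furthest of the called genes. Its values at 6 weeks were 38.9, 34.0, 25.3 and 32.1 CPM, and those at 10 weeks 3.31, 5.63, 2.34 and 4.30 CPM. The lowest young library was thus well above the highest old one. Its fitted log2 fold change was -3.08 (SE 0.27), with an adjusted p of 0.0160 by edgeR, and by sex it was -2.88 in females and -3.32 in males.

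ENSMODG00000005056 fell from a narrow range. It had 19.6, 22.8, 23.1 and 20.3 CPM at 6 weeks and 3.31, 3.84, 5.46 and 5.73 CPM at 10 weeks. The older males were above the older females here, but all 4 stayed far under the young libraries. Fitted over both sexes, the log2 difference was -2.22 (SE 0.21), with an adjusted p of 0.0160 by edgeR, and by sex it was -2.57 in females and -1.94 in males, and the interval of the male minus female difference (95%) ran from -0.18 to 1.45.

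The other 5 called genes all fell, by log2 fold changes of -3.00 to -1.13 (edgeR adjusted p from 0.0160 to 0.0481). Their CPM lay between 15.2 and 88.5 in the 6-week libraries and between 3.84 and 40.3 in the 10-week libraries. Their log2 fold changes were negative in both sexes, from -3.59 to -1.15 in females and from -2.53 to -1.10 in males. The next 4 genes lay just outside the threshold, at an edgeR adjusted p of 0.05002, and had log2 fold changes of -1.67 to -1.26.

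**Figure D2:**
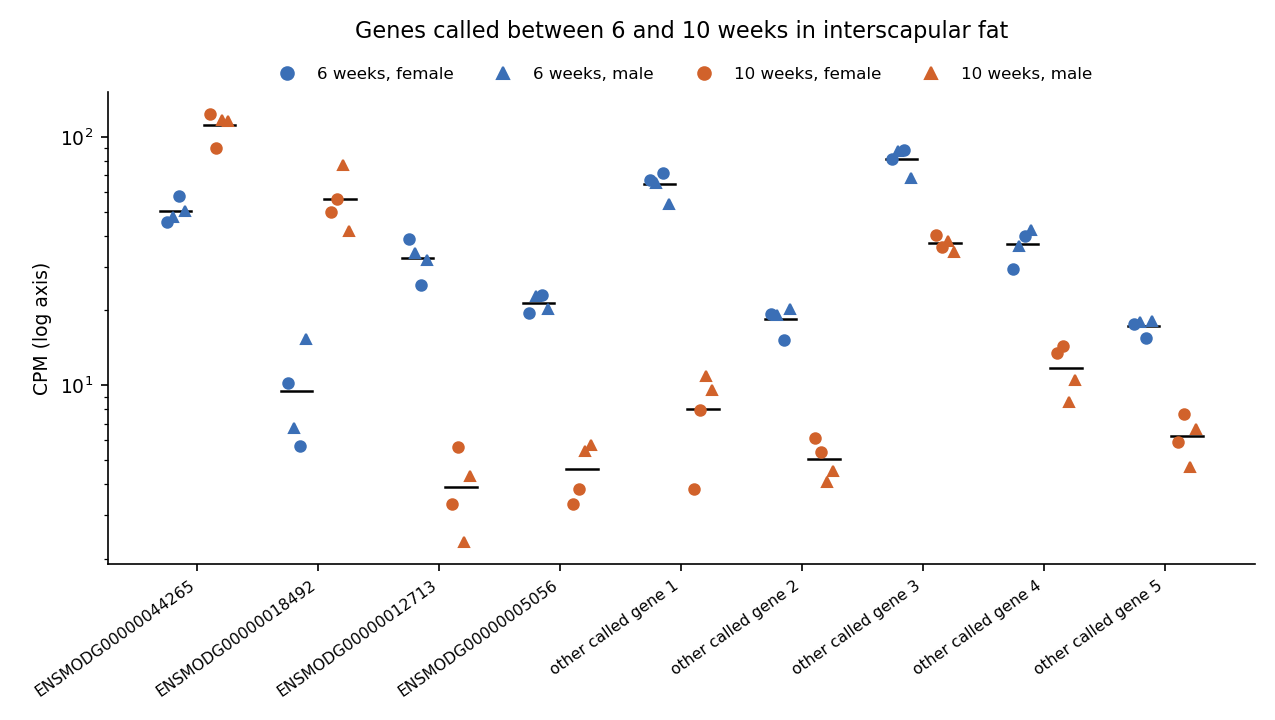
CPM (log axis) of the 9 called genes in each interscapular library, with age by colour, sex by shape and a bar at the mean of the 4 libraries of an age. In every gene the libraries of the ages do not overlap, as in ENSMODG00000012713 with 25.3 to 38.9 CPM at 6 weeks and 2.34 to 5.63 at 10 weeks. The genes were chosen from these same libraries.

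The number of calls depended on single libraries, on the model and on the tool. With sex as a covariate 3 genes were called by edgeR, all lower, and neither rise was: ENSMODG00000018492 and ENSMODG00000044265 each had an adjusted p of 0.0919, at log2 fold changes of 2.58 and 1.15. Without 6-week replicate 1, 2 or 3 no gene was called by edgeR, with 1199, 1097 and 1590 genes at an unadjusted p under 0.05. Leaving out 10-week replicate 1 gave 1 call, and leaving out 10-week replicate 3 or 4 gave 3. With 6-week replicate 4 removed there were 5, and removing 10-week replicate 2 raised the count to 21. ENSMODG00000005056 and ENSMODG00000012713 were each called in 4 of these 8 fits, and ENSMODG00000018492 and ENSMODG00000044265 in 1. DESeq2 called 288 genes, 113 higher and 175 lower, which is 1.99% of the 14487 to which it gave an adjusted p, and these held all 9. Without the 10-week males, which stood apart, 6 genes were called, all lower, and 3 of them were among the 9. That fit sets both sexes at 6 weeks against females alone at 10 weeks, so age and sex are partly mixed in it.

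Below the threshold, differences ran in both directions. Without adjustment, 811 genes that were higher (6.19%) and 756 that were lower (5.77%) had a p under 0.05, 1567 in all (12%). At an edgeR adjusted p under 0.1 there were 15 higher and 42 lower genes, and at an adjusted p under 0.2 there were 121 and 189. The median log2 fold change over all genes was 0.01, and the 5th and 95th percentiles were -0.84 and 0.64. The CPM of all 4 older libraries was above that of all 4 younger ones in 484 genes (3.7%) and below in 513 genes (3.92%), 997 in all (7.61%).

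Counted by size alone, lower genes were the more frequent. At 10 weeks 224 genes were at least 2-fold higher (1.71%) and 472 at least 2-fold lower (3.6%). Most of this excess came from genes of low abundance. With the genes in 4 equal sets by mean CPM, the lowest set, from 1.503 to 8.76 CPM, held 74 genes at least 2-fold higher and 251 lower, and the median SE of their log2 fold change was 0.37. In the set with the highest mean CPM 54 were higher and 59 lower, with a median SE of 0.19. Without overlap between the ages, the lowest set held 85 higher and 172 lower genes and the highest set 101 and 121. The sets between them went the other way, with 165 higher and 103 lower genes in the second lowest and 133 and 117 in the next.

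**Figure D3:**
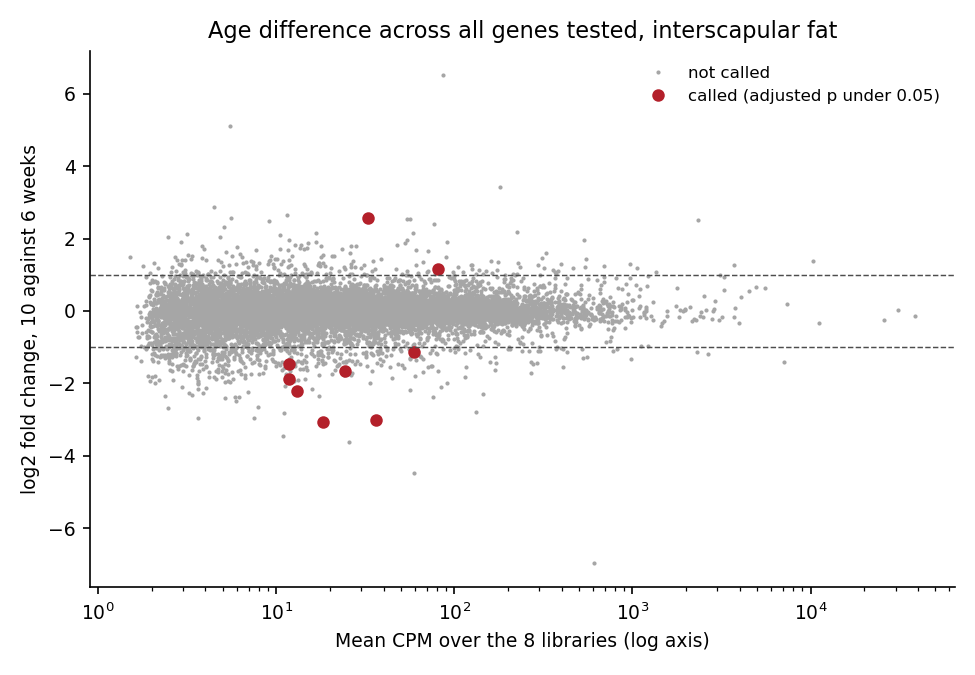
The log2 fold change of 10 against 6 weeks (vertical) for each of the 13093 genes against its mean CPM over the 8 libraries (horizontal, log axis), with the 9 called genes in red and dashed lines at 2-fold. The 472 genes below the lower line outnumber the 224 above the upper one, mainly at low CPM.

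The age difference was then set out by sex. With a mean for each age and sex, 1641 genes reached an unadjusted p under 0.05 for age in females (11.8% of 13905) and 3405 in males (24.5%). Between males and females the number was 442 at 6 weeks (3.18%) and 3620 at 10 weeks (26%). None of these 4 comparisons had a gene called by edgeR. The SD of the log2 fold change over genes was 0.86 for age in females, 1.15 for age in males, 0.53 between the sexes at 6 weeks and 1.26 at 10 weeks. Of these 4 comparisons, older males against older females thus had the widest spread of fold changes, with only 2 animals in each group.

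The male minus female difference in the age effect was tested directly. No gene was called by edgeR (0 of 13905, or 0%), the smallest adjusted p was 0.113, and 3020 genes had an unadjusted p under 0.05 (21.7%). The absence of calls rested on 6-week replicate 1. Without it the lone young female left is 6-week replicate 3, which stood apart on the first component. That fit cannot tell an age effect that differs by sex from this split, and no count is given for it. The older males are also the 10-week libraries that stood apart on the first component, so sex at 10 weeks and that split cannot be told apart. Of the 100 genes with the lowest loadings on that component 100, and of the 100 with the highest 94, had an unadjusted p under 0.05 for this difference, which is a description, since the loadings come from the same libraries. ENSMODG00000010830, not called in the full fit, is given as an example. Its CPM at 6 weeks was 13.9 and 8.42 in the females and 17.5 and 36.8 in the males. At 10 weeks it was 25.3 and 34.2 in the females but 0.583 and 0.480 in the males. ENSMODG00000001199, also not called, went the other way, with 18.5 and 17.9 CPM in young females, 4.88 and 4.85 in older females, 9.76 and 9.81 in young males and 13.8 and 21.9 in older males.

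The genes past 2-fold in the comparison of all 8 libraries were also counted by sex. Of the 224 genes at least 2-fold higher, 59 were so in both sexes, 146 in males alone and 19 in females alone. Of the 472 at least 2-fold lower, 138 were so in both sexes, 154 in males alone and 180 in females alone. Of all 13905 genes in the fit by age and sex, 982 were at least 2-fold higher in males and 547 in females. At least 2-fold lower were 1639 in males and 961 in females. These are counts of point estimates, and each gene's difference between the sexes was not called.

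Sex itself, with age in the model, gave 3 called genes of 13442 (0.0223%), all higher in females, and 477 at an unadjusted p under 0.05 (3.55%). ENSMODG00000041375 had 73.7, 54.1, 46.7 and 40.9 CPM in the 4 females and 0, 0.547, 0 and 0 in the 4 males (edgeR adjusted p = 0.00477). ENSMODG00000005735 had 135, 138, 79.3 and 85.4 CPM in females and 37.5, 42.4, 22.2 and 29.4 in males, with a male minus female log2 difference of -1.72 (SE 0.14) and an adjusted p of 0.0118 by edgeR. All 8 libraries separated by their labelled sex in both genes. Both were chosen by this difference in the same libraries, so the separation is a description and no check of the labels. No gene was called by edgeR once 6-week replicate 1 or 2 was removed (288 and 474 genes at an unadjusted p under 0.05). Removing 10-week replicate 4 gave 2 calls, and removing any other single library gave 1.

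The libraries that stood apart were described through the genes that load on the first component. The 100 genes with the lowest loadings and the 100 with the highest were taken, a choice made from the interscapular values themselves, so their levels there are a description. Levels here are CPM scaled to the total counts of a library. The median of the low-loading genes at 6 weeks was 32.5, 20.4, 5.86 and 36.1 in replicates 1 to 4, and at 10 weeks 30.6, 64.9, 1.05 and 0.222. The older males thus had the lowest medians of all, and 11 and 36 of the 100 genes had no count in 10-week replicates 3 and 4. The median of the high-loading genes was 63.9, 33.0, 75.2 and 5.12 at 6 weeks and 1.43, 11.1, 81.0 and 12.8 at 10 weeks. It varied within each age by more than 10-fold.

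None of the genes in either set was called for age by edgeR, where 0.0687% of all genes were called, so 0 in sets of this size is near the background. Of the low-loading genes 0 and of the high-loading genes 7 had an unadjusted p under 0.05, against 12% of all genes. Genes chosen by a component that varies within each age are unlikely to reach a small p for age, so these counts are a description. The median log2 fold change for age of the low-loading genes was -0.08 over both sexes, 1.11 in females and -5.12 in males. That of the high-loading genes was -0.97 over both sexes, -4.27 in females and 1.37 in males. The most abundant low-loading gene, ENSMODG00000000433, was chosen after its values were seen. It stood at 426, 477, 62.5 and 742 CPM in 6-week replicates 1 to 4 and at 270, 521, 12.3 and 14.6 at 10 weeks. The most abundant high-loading gene, ENSMODG00000001389, chosen in the same way, stood at 13268, 4194, 21710 and 244 CPM at 6 weeks and at 50.02, 912, 12237 and 1104 at 10 weeks.

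The same genes also varied between the other fats. Interscapular libraries hold fewer counts than the others and may differ from them in preparation, so their levels stand side by side with those of the other fats without a test. The median of the low-loading genes was 16.6 to 52.4 CPM in anterior fat at 6 weeks and 33.1 to 71.8 at 10 weeks. In inguinal fat it was 0.363 to 24.7 at 6 weeks and 0.263 to 0.778 at 10 weeks. All 100 had a higher mean in anterior than in inguinal fat, where 66.2% of all genes tested did, and of the high-loading genes 79 did. The older interscapular males, at 1.05 and 0.222, lay at or near the range of the older inguinal libraries, and the older females, at 30.6 and 64.9, at or near that of the anterior ones. The high-loading genes did not follow this order. Their median in the older interscapular males was 81.0 and 12.8 CPM, in the inguinal libraries of the same animals 0.860 and 0.175 CPM, and in all older inguinal libraries 0.175 to 39.2 CPM. In older anterior libraries it was 3.55 to 51.9 CPM.

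**Figure D4:**
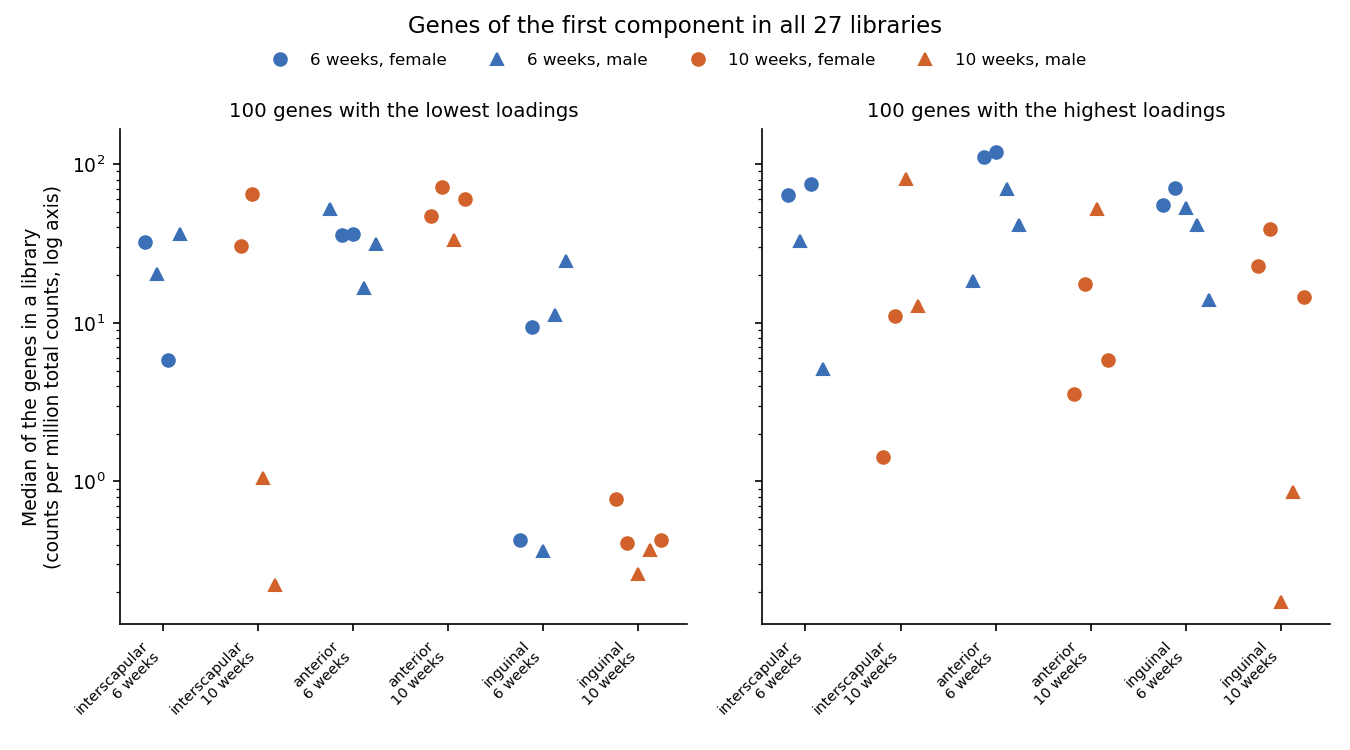
Median level (CPM of the total counts, log axis) of the 100 genes with the lowest loadings (left) and the 100 with the highest (right) on the first interscapular component, in each of the 27 libraries by fat and age, with age by colour and sex by shape. On the left the older interscapular males (1.05 and 0.222) lie near the inguinal values and the older females (30.6 and 64.9) near the anterior ones.

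With the first component as a covariate, an alternative added after the data were seen, 314 genes were called for age, 99 higher and 215 lower, and all 9 were among them. Without the 3 libraries with the highest scores 9 genes were called, all lower, of which 3 were among the original 9. The 10-week libraries left there are females alone, against both sexes at 6 weeks. Within sexes, the females alone gave 2 called genes and the males alone 776, of which 246 were higher and 530 lower. These fits hold 2 animals a group, and the males' count compares 10-week libraries that stood apart with 6-week libraries that did not. Within each age, the spread of replicates expressed as edgeR's biological coefficient of variation was 0.260 at 6 weeks and 0.419 at 10 weeks, and between 0.239 and 0.280 in the 4 pairs of the same age and sex.

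The age difference was also compared with that of the other fats, which share animals with the interscapular set: 6 animals have an inguinal and 5 an anterior library. No gene was called by edgeR for a difference in age effect between interscapular and inguinal fat (0 of 15631, or 0%), and 740 had an unadjusted p under 0.05 (4.73%). Between interscapular and anterior fat the test also gave 0 calls (0% of 15812), with 713 genes at an unadjusted p under 0.05 (4.51%). The median SE of these differences was 0.37 and 0.36 on the log2 scale. Without the older interscapular males edgeR again called 0 genes against either fat. An unadjusted p under 0.05 was then reached by 2176 of 16636 genes against inguinal fat, more than the 740 of 15631 with these males. Against anterior fat 512 genes reached it, fewer than the 713 with them.

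For the genes named above, the interval of the difference shows what the data allow in a fit that treats libraries of the same animal as independent. The log2 fold change of ENSMODG00000044265 was 1.15 in interscapular, 2.17 in inguinal and 1.07 in anterior fat. It differed from inguinal fat by -0.98 (95% interval -1.43 to -0.53), but over all genes the edgeR adjusted p of this difference was 1.0, and from anterior fat by 0.11 (95% interval -0.40 to 0.61). The log2 fold change of ENSMODG00000018492 was 2.57 in interscapular, 2.21 in inguinal and 1.25 in anterior fat. It differed from inguinal fat by 0.39 (95% interval -1.05 to 1.82) and from anterior fat by 1.34 (95% interval 0.48 to 2.21, edgeR adjusted p = 0.957). ENSMODG00000012713 had log2 fold changes of -3.08, -3.30 and -2.52 in interscapular, inguinal and anterior fat, and its intervals of difference ran from -1.11 to 1.61 and from -1.27 to 0.19. ENSMODG00000005056 had -2.22, -2.24 and -1.52, with intervals from -0.60 to 0.70 and from -1.66 to 0.27. These 4 genes thus had the same sign in the 3 fats, and no difference in size passed the test. With a term for each animal in the model, the difference of ENSMODG00000044265 from inguinal fat was -0.77 (SE 0.29).

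Genes called in the other fats were followed in the interscapular libraries. For inguinal fat the age test called 1057 higher genes (7.59%) and 1155 lower ones (8.29%). Inguinal libraries are deeper and number 5 at each age, against 4 in interscapular fat. Thinned to 3400000 counts each, just under the smallest interscapular total, they gave 1618 calls (13.6% of 11933). The interscapular fit with 9 calls was not thinned. Why the fats differ in the number of calls was not tested. For anterior fat 19 were higher (0.129%) and 30 lower (0.203%), and 17 after thinning (0.132% of 12900). Because the fats share animals, no p is given for what follows.

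Of the 1057 genes higher in inguinal fat 1006 were tested in interscapular fat, and 424 of these (42.1%) were higher there at an unadjusted p under 0.05, against 6.19% of all genes. Their median log2 fold change was 0.70 in inguinal and 0.49 in interscapular fat, where that of all genes was 0.01. Of the 1155 lower in inguinal fat 1052 were tested, and 358 (34.0%) were lower at an unadjusted p under 0.05, against 5.77%, with medians of -1.04 and -0.43. In these lists 0 genes passed that p in the opposite direction. The interscapular medians were 0.20 in females and 0.79 in males for the higher list, and -0.26 and -0.82 for the lower list. The females leave out the older males that stood apart but still hold 6-week replicate 3, which also did.

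The library values show the same split. The median log2 CPM of the higher inguinal list, less the mean of the 8 libraries, was -0.37, -0.23, 0.00 and -0.35 at 6 weeks and 0.16, -0.18, 0.43 and 0.49 at 10 weeks. The ages overlapped, since 10-week replicate 2 lay below 6-week replicate 3. For the lower inguinal list the values were 0.33, 0.31, 0.09 and 0.48 at 6 weeks and -0.17, 0.07, -0.56 and -0.38 at 10 weeks. Here the ages were separate by a narrow gap between 6-week replicate 3 and 10-week replicate 2.

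The short anterior lists separated the ages more evenly. Of the 30 genes lower in anterior fat 28 were tested, and 20 were lower here at an unadjusted p under 0.05 (71.4%, against 5.77% of all genes), with a median of -1.40 in anterior and -1.49 in interscapular fat. Their library values were 0.67, 0.64, 0.58 and 0.72 at 6 weeks and -0.69, -0.81, -0.80 and -0.62 at 10 weeks. The older males and older females overlapped in these genes, and the median log2 fold changes in females and males were both -1.41. Of the 19 genes higher in anterior fat 17 were tested and 11 were higher at an unadjusted p under 0.05 (64.7%, against 6.19% of all genes), with a median of 0.99 in anterior and 0.77 in interscapular fat. Their library values were -0.38, -0.42, -0.20 and -0.22 at 6 weeks and 0.46, 0.34, 0.09 and 0.47 at 10 weeks.

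**Figure D5:**
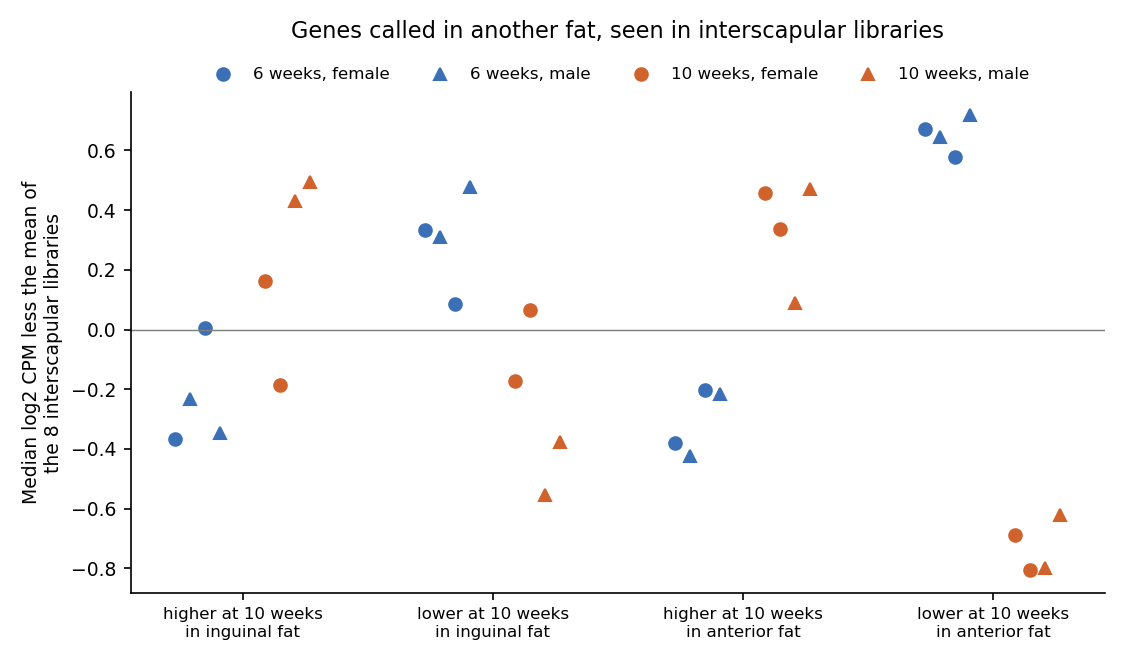
Median log2 CPM, less the mean of the 8 interscapular libraries, of genes called for age in inguinal or anterior fat, in each interscapular library by age (colour) and sex (shape). The genes lower in anterior fat lie between 0.58 and 0.72 at 6 weeks and between -0.81 and -0.62 at 10 weeks, while the genes higher in inguinal fat overlap between the ages.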

How the data were processed

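The authors deposited raw gene counts from RNA sequencing, without normalization. STAR is named in the submitters' processing notes. Which version, genome build, annotation and strand option were used is not given in the sources used here, so overlapping and near-identical genes are uncertain. RNA was extracted with Qiazol, per the labels' protocols, which describe a paired-end oligo(dT) and a single-end NUGEN preparation without saying which libraries had which.

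Groups follow the depot and age in the labels. Counts were tested with edgeR 4.0.16 (glmQLFit and glmQLFTest, R 4.3.3) with TMM factors and filterByExpr (minimum count 10, minimum total 15), on the 8 interscapular libraries alone, and adjusted over all genes tested by Benjamini-Hochberg. Calls required an adjusted p under 0.05. SE is the absolute log2 fold change over the square root of F. Differences between fats or sexes are contrasts in 1 model. DESeq2 1.42.0 and limma-voom (limma 3.58.1) were alternatives. Principal components used log2 CPM with a prior count of 2. Pairs of libraries within an age differed by more than sampling noise (chi-square per degree of freedom 16.9 to 68.0 over genes with at least 20 counts), so each counts as 1 replicate.

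In each comparison the text names up to 2 identifiers per direction, those with the smallest p. The marker and pathway lists were not used, since no identifier matched a symbol. The members and lists were chosen with earlier results of these data known.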

Additional observations from a re-analysis of the deposited data

Results flagged for a closer look

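Within the 4 interscapular libraries of an age, the gap of the highest or lowest value to its neighbour was set against Dixon's critical value. A group was 1 measure at 1 age, and 30 groups were examined. In 1 of them it was exceeded: the median of the 100 high-loading genes of the first component was 81.0 CPM of total counts in 10-week replicate 3, and the next value at that age was 12.8. Chance gives about 1 such group in 20.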

How the results depend on the processing

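The 9 age calls kept their sign under each alternative, which their ranges, without overlap between the ages, largely fix. The number of calls was 9 with RLE factors or limma-voom and 11 with upper-quartile factors. It was 288 by DESeq2, 31 without the filter, 21 under the stricter filter, 3 with sex as a covariate (neither rise among them), and 357 with all 27 libraries in 1 model. Among alternatives chosen after seeing the data, females alone gave 2, males alone 776 and the first component as a covariate 314. Leaving out 1 library gave 0 to 21. With the replicate number as a block 3 genes were called, of which 1 was among the 9, and ENSMODG00000018492 and ENSMODG00000044265 had adjusted p of 0.209 and 0.186 by edgeR. Numbers do not pair animals here, since the labels give each interscapular library its own animal. Deviations of libraries with the same number correlated at 0.05, -0.00, 0.67 and -0.26, and those with different numbers at -0.67 to 0.58. Sex calls ranged from 0 to 2 and age-by-sex calls from 0 to 671 with 1 library left out. The difference in share of the 100 most abundant genes was 0.635 percentage points, -0.114 for the 10 most abundant, and -0.558 to 2.33 with 1 library left out. Differences between fats gave 0 calls in every alternative, the block by animal included (286 and 387 genes at an unadjusted p under 0.05 against inguinal and anterior fat). The small inguinal difference of ENSMODG00000005056 changed sign, at -0.080 to 0.22 with 1 library left out and -0.29 without the older interscapular males, as did that of ENSMODG00000012713 (-0.011 to 0.61) and the anterior difference of ENSMODG00000044265 (-0.051 to 0.21). The causes of these changes were not tested. Of the equal sets of genes by mean CPM, the lowest, under 8.76 CPM, had the largest median SE, at 0.37. Whether depth sets this was not tested.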
